A study of Callithrix jacchus with 39 samples.

Results

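Mesenchymal and stromal cells secrete a fibrous extracellular matrix, carry a cytoskeleton rich in vimentin and express a characteristic set of homeobox and nuclear receptor genes. The 7 genes described here were grouped under the name mesenchymal. FN1 (ENSCJAG00000011714), POSTN (ENSCJAG00000017968), DCN (ENSCJAG00000019513) and PAMR1 (ENSCJAG00000010977) encode secreted proteins. VIM (ENSCJAG00000008688) encodes a filament protein, and PRRX1 (ENSCJAG00000009928) and NR2F1 (ENSCJAG00000010492) encode transcription factors. They were selected by symbol, 7 of 30811 gene rows in the count table, because of their levels in primed embryonic stem cells (ESCs) and in the epiblast of these same libraries. Their levels over the 13 groups are therefore given as a description, with no test.

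Fibronectin binds integrins at the cell surface and is a classic product of cells that leave an epithelium, together with vimentin. Periostin and decorin are matrix proteins of fibroblasts and developing connective tissue, and decorin also binds growth factors. PRRX1 marks limb and craniofacial mesenchyme, and NR2F1 is a COUP-TF nuclear receptor of neural crest, mesenchyme and neural tissue. Pluripotent cells are epithelial, and some of these genes are also active in the epiblast, the yolk sac and the primitive streak, where cells turn from epithelium to mesoderm.

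Gene counts came from RNA sequencing of polyadenylated transcripts of Callithrix jacchus, the common marmoset, in a series on turning primed ESCs into naive-like ones. The 39 libraries fell into 13 groups of 3. The ESC groups were naive cells titled DSY-c2 TgON and N40 TgOFF, primed cells titled DSY-c2 Tg and N40 Tg, and primed cells titled DSY127 and No.40. From the embryo came the morula, 5 stages of the inner cell mass (ICM), labelled early blastocyst, blastocyst, expanded, hatching and hatched, and the epiblast after implantation. The labels do not define Tg, TgON or TgOFF, name no culture medium, and do not say whether the DSY-c2 and N40 cells were derived from DSY127 and No.40. Nor do they tell whether replicates are different cultures or embryos, and p-values then measure only how libraries differ, which may be technical. The DSY-c2 primed libraries are numbered 2, 4 and 5 in their titles, and those numbers are used here.

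Levels are CPM, counts per 1e6 counts of the library, and ± is the SD over n = 3 libraries. Library totals were 38.8 to 78.7 M (1e6) counts in ESCs and 45.3 to 59 M in embryos, so 3 counts in a group correspond to about 0.013 to 0.0205 CPM over the 3 libraries of an ESC group. CPM is not divided by gene length, so levels are compared between libraries and not between genes. In bulk RNA, fewer cells of a type and less RNA per cell cannot be told apart.

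**Figure D1:**
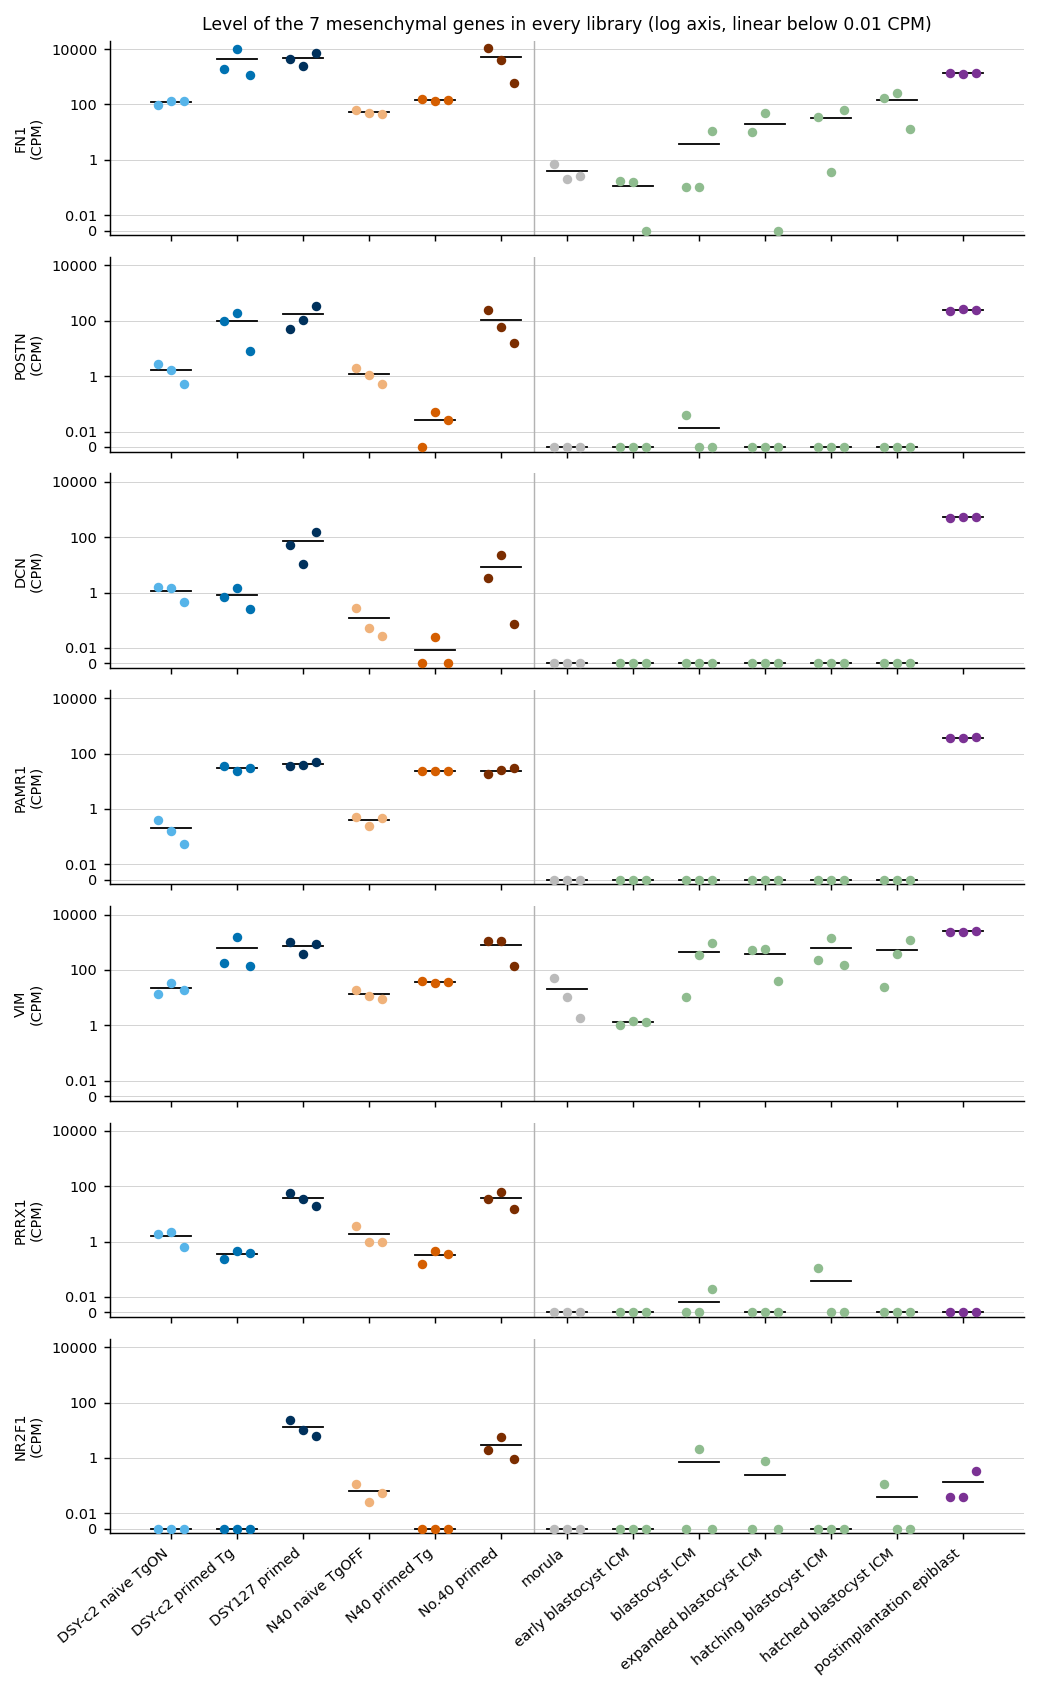
Level of each of the 7 genes in CPM (log axis, linear below 0.01 CPM) in the 39 libraries, with 1 panel per gene, 1 point per library and a bar at the mean of each of the 13 groups. PRRX1 and NR2F1 stand high in the DSY127 and No.40 libraries and near 0 in the epiblast, where DCN, POSTN, PAMR1, FN1 and VIM are high.

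FN1, which encodes fibronectin, had 95.5, 131 and 131 CPM in the DSY-c2 naive libraries, against 1951, 10048 and 1189.7 CPM in DSY-c2 primed libraries 2, 4 and 5. The DSY127 libraries had 4288, 2356 and 7203 CPM. Every library of these primed groups therefore lay above every DSY-c2 naive library, and the primed libraries also differed widely among themselves. FN1 had 64.1, 50.1 and 44.3 CPM in N40 naive cells, against 161, 136 and 149 CPM in N40 primed cells. The No.40 primed libraries had 11180.0, 4154 and 598 CPM, all above the N40 primed cells, with replicate 3 far below replicates 1 and 2.

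In the embryo, FN1 was almost absent at first and appeared library by library. It had 0.725, 0.203 and 0.271 CPM in the morula, 0.177, 0.155 and 0 CPM in early blastocyst ICM and 0.101, 0.108 and 10.6 CPM in blastocyst ICM. Expanded blastocyst ICM had 10.5, 47.4 and 0 CPM, hatching ICM had 35.4, 0.349 and 64.9 CPM, and hatched ICM had 173, 253 and 13.5 CPM. The epiblast had 1327, 1303 and 1369 CPM, so that its 3 libraries were close to each other and above all 15 ICM libraries. Ordered by mean, No.40, DSY127 and DSY-c2 primed cells and the epiblast came first, with overlapping neighbours. N40 primed cells, hatched ICM and DSY-c2 naive cells followed with ranges below the epiblast, and early blastocyst ICM came last.

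POSTN, which encodes the matrix protein periostin, had 2.7, 1.72 and 0.527 CPM in DSY-c2 naive cells, against 102, 192 and 8.25 CPM in DSY-c2 primed cells. The DSY127 libraries had 51.9, 110.4 and 350.1 CPM. In N40 the levels were 1.95, 1.13 and 0.535 CPM in naive cells, against 0, 0.0515 and 0.0267 CPM in primed cells, where POSTN had 6 counts in all. The N40 primed libraries thus lay below both naive groups, while the other 3 primed groups lay above them. No.40 primed cells had 242, 60.1 and 15.5 CPM. The epiblast had 219, 266 and 239 CPM, and 14 of the 15 ICM libraries and the 3 morula libraries had no POSTN count. By mean, the epiblast came first, then DSY127, No.40 and DSY-c2 primed cells, each overlapping the next, then both naive groups, which overlapped each other only.

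DCN, which encodes the small leucine-rich proteoglycan decorin, was uneven between libraries of the DSY127 and No.40 groups. It had 50.5, 10.9 and 151 CPM in the DSY127 libraries, and 3.39, 21.9 and 0.0705 CPM in the No.40 libraries, where the highest was 310.3-fold the lowest. DSY-c2 cells had 1.62, 1.44 and 0.444 CPM when naive, against 0.672, 1.44 and 0.252 CPM when primed. These DSY-c2 ranges overlapped, and N40 cells had less still, with 0.277, 0.0531 and 0.0268 CPM in naive libraries and 2 counts in all in the primed libraries. The epiblast had 497, 540.4 and 556 CPM, and no ICM or morula library had a DCN count. Epiblast libraries were thus above every other library of the series. After the epiblast came DSY127, No.40, DSY-c2 naive, DSY-c2 primed and N40 naive cells, each overlapping the next by mean order.

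PAMR1 encodes a secreted protein with protease-like and EGF-like domains. It had 0.384, 0.157 and 0.0555 CPM in DSY-c2 naive cells, against 35.5, 23.2 and 31.0 CPM in DSY-c2 primed cells. The N40 naive libraries had 0.498, 0.239 and 0.482 CPM, against 24.2, 22.7 and 23.1 CPM in N40 primed cells. PAMR1 varied little among primed libraries, from 34.7 to 49.6 CPM in DSY127 and from 17.9 to 30.2 CPM in No.40. The epiblast had 373, 358 and 391 CPM, and the ICM and morula libraries had none. The epiblast was followed by the 4 primed groups, which overlapped as neighbours, and then by both naive groups, whose ranges overlapped. In the RefSeq gene table of assembly calJac240_pri, PAMR1 overlaps a long noncoding RNA gene, and the strand setting of the authors' counting is not given in the sources used here, so reads of the 2 genes may not have been separated. The other 6 genes overlap no gene in that table.

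VIM, which encodes vimentin, the intermediate filament protein of mesenchymal cells, followed FN1 closely among ESC libraries. It had 13.8, 32.7 and 18.2 CPM in DSY-c2 naive cells, against 176, 1497 and 138 CPM in DSY-c2 primed cells. The N40 naive libraries had 18.9, 11.2 and 8.75 CPM, against 38.2, 34.4 and 35.7 CPM in N40 primed cells. DSY127 had 1022, 364 and 874 CPM, and No.40 had 1139.7, 1077 and 133 CPM. All DSY127 and No.40 libraries were above all naive and N40 primed libraries.

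Every embryo library had VIM counts. VIM had 50.8, 10.9 and 1.83 CPM in the morula, 1.02, 1.43 and 1.35 CPM in early ICM and 10.7, 349 and 969 CPM in blastocyst ICM. Expanded ICM had 522, 569 and 41.3 CPM, hatching ICM had 223, 1425 and 151 CPM, and hatched ICM had 24.4, 369 and 1241 CPM. The epiblast had 2331, 2389 and 2600.1 CPM, above every other library. The ICM stages from blastocyst to hatched overlapped their neighbours in the order of means, as did No.40, DSY127 and DSY-c2 primed cells above them. N40 primed cells came next by mean, above every DSY-c2 naive library and within the ranges of hatched ICM, blastocyst ICM and the morula. DSY-c2 naive cells, the morula and N40 naive cells followed, and early ICM was last.

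PRRX1, a paired-related homeobox transcription factor, was highest by mean in No.40 and DSY127 cells. Among ESC groups the matrix gene DCN was also highest there by mean, but in the epiblast DCN was high and PRRX1 had no count. PRRX1 had 55.8, 35.1 and 19.6 CPM in DSY127 and 34.4, 64.1 and 15.4 CPM in No.40, ranges that overlapped. DSY-c2 had 1.89, 2.26 and 0.625 CPM in naive cells, against 0.234, 0.455 and 0.378 CPM in primed cells. N40 had 3.69, 0.969 and 0.95 CPM in naive cells, against 0.152, 0.463 and 0.36 CPM in primed cells. The 2 groups of primed Tg cells were therefore the lowest ESC groups for PRRX1, below both naive groups. The epiblast had no PRRX1 count in 3 libraries, where 3 counts over the group would be 0.0192 CPM, and the 15 ICM libraries had 7 counts in all.

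NR2F1, the COUP-TF nuclear receptor, was measured mainly in 2 ESC groups. The DSY127 libraries had 23.3, 10.6 and 6.31 CPM, all above the No.40 libraries with 1.93, 5.92 and 0.917 CPM. No count was found in DSY-c2 naive, DSY-c2 primed or N40 primed cells, and the N40 naive libraries had 14 counts in all. In the embryo, NR2F1 had 0.0383, 0.0391 and 0.34 CPM in the epiblast, and 3 of 15 ICM libraries had counts, the highest 2.16 CPM in blastocyst ICM replicate 2. In the epiblast DCN, POSTN, PAMR1, FN1 and VIM were thus high, while PRRX1 was at 0 and NR2F1 near 0. Since the genes were chosen on these levels, the levels are no check of the name mesenchymal.

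The first comparison was naive against primed cells in DSY-c2. PAMR1 was 150.5-fold lower in naive than in primed cells, POSTN 61.0-fold, FN1 36.9-fold and VIM 28.0-fold, as ratios of group means. PRRX1 was 4.47-fold higher in naive cells, at 1.59 ± 0.856 CPM in naive and 0.356 ± 0.112 CPM in primed libraries. DCN overlapped between the groups and NR2F1 had no count in either. Thus 1 member lay above and 4 lay below in every library, where 27.1% of the 17957 genes tested lay above and 37.4% below. All 7 members had passed the low-count filter in ESCs. The sizes of the ratios moved with primed library 4. On the log2 scale FN1 was at -5.2 with it and at -3.72 without it, VIM at -4.81 with it and -2.86 without it, and POSTN at -5.93 with it and -5.06 without it. PAMR1, at -7.23 with all libraries, was at -8.14 without naive replicate 1.

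Stromal and pathway genes that are not members were tested with edgeR on the whole table. Genes were called where p, after Benjamini-Hochberg adjustment, was below 0.05. All gene lists used here were chosen with earlier results of these data known. List shares set beside the shares of all genes are therefore a description and no independent check. Of 128 tested in DSY-c2, 10 rose and 72 fell in naive cells, where 29.6% of all genes rose and 29.3% fell, and their median log2 fold change was -1.42, against 0.03 over all genes. Receptors of fibronectin and periostin were among those that fell, 10 of 12. ITGB5, the integrin beta chain that pairs with alpha V, averaged 18.2 CPM in naive and 165 CPM in primed cells (edgeR log2 fold change -3.04 ± 0.23 SE, adjusted p = 2.07e-08). ITGA5, the alpha chain of the main fibronectin receptor, averaged 81.6 CPM in naive and 318 CPM in primed cells (adjusted p = 0.00117, edgeR), and SDC2, a heparan sulfate proteoglycan, averaged 1.99 CPM in naive and 48.9 CPM in primed cells (adjusted p = 1.13e-06, edgeR).

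Among 39 matrix genes, 2 rose and 21 fell in DSY-c2 naive cells. COL6A3, a chain of collagen VI, averaged 1.75 CPM in naive and 140.1 CPM in primed cells (log2 -6.18 ± 0.42 SE, edgeR adjusted p = 1.56e-08). CDH11, the cadherin of mesenchymal cells, averaged 1.97 CPM in naive and 103 CPM in primed cells and fell likewise (edgeR adjusted p = 0.00104). COL3A1, the fibrillar collagen III chain, rose instead, to 30.7 CPM in naive against 3.42 CPM in primed cells (log2 3.3 ± 0.84 SE, edgeR adjusted p = 0.004). Among the decorin family, 2 of 7 genes rose and 2 fell, and OGN and ASPN, both small leucine-rich proteoglycans, were the 2 that rose. The ASPN call was lost without primed library 5 (edgeR adjusted p = 0.0535) or naive replicate 1 (0.0527). Smooth muscle and contractile genes fell in 12 of 14 cases, with TAGLN at 42.7 CPM in naive and 355 CPM in primed cells (edgeR adjusted p = 0.000679).

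The mesenchymal regulators did not move as a block in DSY-c2, with 2 of 17 higher, 5 lower and a median log2 fold change of -0.34. HMGA2, a chromatin protein of early embryonic and mesenchymal cells, averaged 0.39 CPM in naive and 15.2 CPM in primed cells (edgeR adjusted p = 1.36e-05). TWIST2, a basic helix-loop-helix factor of mesoderm, averaged 0.296 CPM in naive and 2.89 CPM in primed cells (edgeR adjusted p = 6.23e-05). RUNX1, a factor of blood and mesenchyme, rose to 5.43 CPM in naive against 0.916 CPM in primed cells (edgeR adjusted p = 0.000435). ZEB2, a repressor of epithelial genes, averaged 1.13 CPM in naive and 0.559 CPM in primed cells and was not called (edgeR adjusted p = 0.273). ZEB1, its relative, fell with an edgeR adjusted p of 0.0249, but the adjusted p was 0.658 without primed library 4, 0.0706 without naive replicate 1, 0.0696 without naive replicate 3 and 0.0631 when only the 2 groups were fitted.

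In N40, members separated naive from primed libraries in both directions. PAMR1 was 57.5-fold lower in naive than in primed cells, FN1 2.82-fold and VIM 2.79-fold. POSTN was 46.3-fold higher in naive cells, from 266 counts in naive and 6 in primed libraries, and PRRX1 was 5.75-fold higher. DCN was 13.9-fold higher, with a 95% counting interval of 3.84 to 114 because the primed libraries had 2 counts, and NR2F1 was at least 4.91-fold higher, from 14 counts in naive and 0 in primed libraries. So 4 members lay above and 3 below in every library, where 31.4% of all genes lay above and 33.1% below. For DCN this rested on 2 counts in naive replicate 3 (0.0268 CPM) beside 2 counts in primed replicate 2 (0.0257 CPM). In the first of the deposited columns of each library neither DCN nor NR2F1 separated the groups. In the second column DCN separated them and NR2F1 again did not. Without naive replicate 1, the log2 ratio of PRRX1 was 1.56 in place of 2.52 and that of DCN 2.22 in place of 3.79, and POSTN, at 5.53, was at 6.5 without primed replicate 2. POSTN thus lay below in DSY-c2 naive cells and above in N40 naive cells.

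Of 128 other stromal and pathway genes tested in N40, 29 rose and 64 fell in naive cells, where 32.3% of all genes rose and 28.7% fell. Their median log2 fold change was -0.97, against 0.09 over all genes. Fibronectin and periostin receptors fell in 9 of 12 cases, and ITGB5 averaged 7.46 CPM in naive and 175 CPM in primed cells (log2 -4.46 ± 0.24 SE, edgeR adjusted p = 6.25e-10). CCN1, a matricellular integrin ligand, averaged 5.47 CPM in naive and 737 CPM in primed cells (log2 -6.98 ± 0.81 SE, edgeR adjusted p = 4.29e-06). PDGFRB, the receptor of pericytes and fibroblasts, averaged 1.39 CPM in naive and 109.9 CPM in primed cells and also fell (edgeR adjusted p = 1.26e-09). COL3A1 rose to 73.5 CPM in naive against 0.35 CPM in primed cells (log2 7.8 ± 1.09 SE, edgeR adjusted p = 2.43e-05).

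Here 8 of 17 mesenchymal regulators rose and 3 fell, with a median log2 fold change of 1.68. RUNX1 averaged 8.54 CPM in naive and 0.365 CPM in primed cells (edgeR adjusted p = 4.64e-06), and EBF1, a helix-loop-helix factor of adipose and bone marrow stroma, averaged 0.735 CPM in naive and 0.0345 CPM in primed cells (edgeR adjusted p = 0.000514). ZEB2 rose to 2.28 CPM in naive against 0.302 CPM in primed cells (edgeR adjusted p = 0.00973), but without naive replicate 1, which had 4.84 CPM, the adjusted p was 0.101. That library also had the highest PRRX1, DCN and POSTN among N40 naive cells. HMGA2 fell in N40 as in DSY-c2, at 0.0716 CPM in naive and 5.79 CPM in primed cells (edgeR adjusted p = 7.48e-06). PRRX2, the paralog of PRRX1, fell to 2.26 CPM in naive against 6.42 CPM in primed cells (edgeR adjusted p = 4.56e-05).

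The difference of the naive effects, DSY-c2 minus N40, was tested directly. It was called for 27 of 128 other stromal and pathway genes, 12 higher and 15 lower, where 6.55% of all genes were called higher and 8.57% lower. For the members the same difference is given by the values above, with no test. Markers of other states also differed between naive and primed cells by edgeR. In DSY-c2, 7 of 16 epithelial genes rose and 3 fell, 3 of 11 primitive streak genes rose and 6 fell, and 1 of 11 neural and neural crest genes rose and 8 fell. Endothelial genes fell in 7 of 12 cases with 1 higher, yolk sac genes in 5 of 13 with 1 higher and blood genes in 3 of 7, and 4 of 10 extraembryonic mesoderm and amnion genes rose and 1 fell. Trophoblast genes gave 2 higher and 3 lower of 8, and decidua genes 1 higher and 2 lower of 6. In N40, 5 of 16 epithelial genes rose and 7 fell, 4 of 11 streak genes rose, and 6 of 10 extraembryonic mesoderm and amnion genes rose and 1 fell. Neural genes gave 2 higher and 5 lower of 11, endothelial genes 3 and 5 of 12, yolk sac genes 1 and 5 of 13, trophoblast genes 3 and 3 of 8 and decidua genes 2 and 2 of 6, and 4 of 7 blood genes fell. Several of these shares were close to those over all genes. Their part in the levels of the members was not tested.

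**Figure D2:**
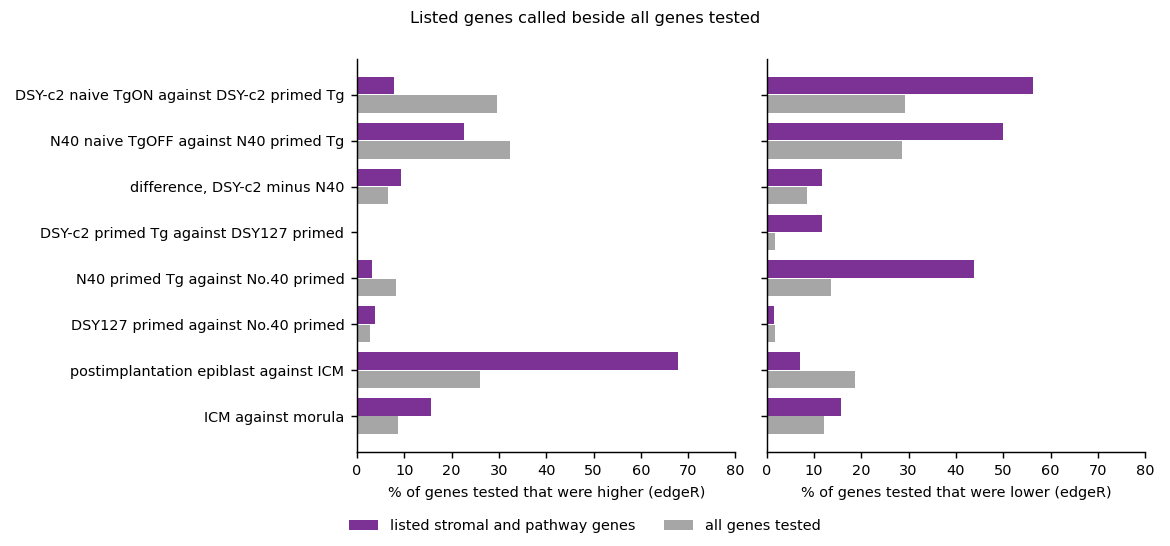
Percent of genes tested that were higher (left) or lower (right) by edgeR in each of the 8 comparisons, with violet bars for the stromal and pathway genes other than the 7 members and grey bars for all genes tested. The violet bar is longer than the grey bar among lower genes in both naive against primed comparisons and among higher genes in the epiblast. Since the lists were chosen after earlier results of these data were known, the bars are a description.

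The next comparisons set the primed Tg cells against the primed cells titled DSY127 and No.40. In DSY-c2 primed Tg cells PRRX1, NR2F1 and DCN were far below DSY127. PRRX1 was 103-fold lower, DCN 89.8-fold lower and NR2F1 at least 855-fold lower, and every DSY-c2 primed library lay below every DSY127 library for these 3. FN1, POSTN, VIM and PAMR1 overlapped, with log2 ratios of group means of -0.07, -0.76, -0.32 and -0.46. No member lay above and 3 of 7 lay below, where 7.06% of all genes lay above and 12.1% below. Without DSY-c2 primed library 4, which had the most FN1, VIM and POSTN of its group, FN1 was at -1.56 and VIM at -2.26 on the log2 scale, and 5 of the 7 members lay below in every library. Without DSY127 replicate 3, FN1 was at 0.4, POSTN at 0.31 and DCN, at -6.49 with all libraries, at -5.28.

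Few of the other stromal and pathway genes differed between DSY-c2 primed Tg and DSY127 cells. Of 128 tested with edgeR, 15 fell in the Tg cells and 0 rose, where 1.72% of all genes fell and 0.156% rose. At an unadjusted p under 0.05, edgeR gave 3 higher and 30 lower, and DESeq2 called 0 higher and 20 lower. The 15 included 5 regulators. ZEB2 averaged 0.559 CPM in the Tg cells and 28.6 CPM in DSY127 (log2 -5.64 ± 0.95 SE, edgeR adjusted p = 0.00538), and RUNX2, the osteoblast factor, averaged 0.0835 CPM in the Tg cells and 3.24 CPM in DSY127 (edgeR adjusted p = 0.00387). COL3A1 averaged 3.42 CPM in the Tg cells and 218 CPM in DSY127 (edgeR adjusted p = 0.00408), and COL1A1, the main fibrillar collagen of connective tissue, averaged 229 CPM in the Tg cells and 1062 CPM in DSY127 (edgeR adjusted p = 0.0155). The COL1A1 call was lost without DSY127 replicate 1 (edgeR adjusted p = 0.0902), DSY-c2 primed library 2 (0.108) or library 4 (0.101). When only the 2 groups were fitted, 12 genes were called, without COL3A1 (edgeR adjusted p = 0.0807), COL1A1 (0.0954), COL1A2 (0.0949) and BGN (0.0875). The 12 were thus not all among the 15. OGN, ASPN and BGN, relatives of DCN, fell too, BGN to 5.06 CPM in the Tg cells against 29.0 CPM in DSY127 (edgeR adjusted p = 0.0029). Fits without 1 library called 7 to 14 genes, the fewest without DSY127 replicate 1 or DSY-c2 primed library 2.

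N40 primed Tg cells were then compared with No.40 cells. POSTN was 4068-fold lower in N40 primed cells, DCN 985-fold lower (95% counting interval 273 to 8137, from 2 counts in the Tg libraries), PRRX1 117-fold, FN1 35.7-fold and VIM 21.7-fold lower, and NR2F1 at least 226-fold lower. PAMR1 alone overlapped, at 23.3 ± 0.793 CPM in N40 primed and 24.3 ± 6.16 CPM in No.40 libraries. Thus 6 of 7 members lay below in every library, where 21.5% of all genes lay below and 11.2% above. Without No.40 replicate 1, the log2 ratio of FN1 was -4.0 in place of -5.16 and that of POSTN -10.5 in place of -11.99. Without No.40 replicate 2, that of DCN was -7.66 in place of -9.94 and that of PRRX1 -6.26 in place of -6.87.

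Of 128 other stromal and pathway genes, 4 rose and 56 fell in N40 primed Tg cells, where 8.3% of all genes rose and 13.6% fell. Among the regulators, 15 of 17 fell, with a median log2 fold change of -5.75, against -0.05 over all genes. ZEB2 averaged 0.302 CPM in the Tg cells and 37.4 CPM in No.40 (log2 -6.87 ± 1.01 SE, edgeR adjusted p = 0.000416). ZEB1 averaged 0.147 CPM in the Tg cells and 11.8 CPM in No.40 (edgeR adjusted p = 0.000565), and EBF1 averaged 0.0345 CPM in the Tg cells and 5.03 CPM in No.40 (edgeR adjusted p = 0.000162). SNAI2, a zinc finger repressor of E-cadherin, was not called (log2 -2.7, edgeR adjusted p = 0.051). COL3A1 averaged 0.35 CPM in the Tg cells and 154 CPM in No.40 (edgeR adjusted p = 0.000201), and TNC, the matrix protein tenascin C, averaged 3.01 CPM in the Tg cells and 97.1 CPM in No.40 (edgeR adjusted p = 0.00113).

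**Figure D3:**
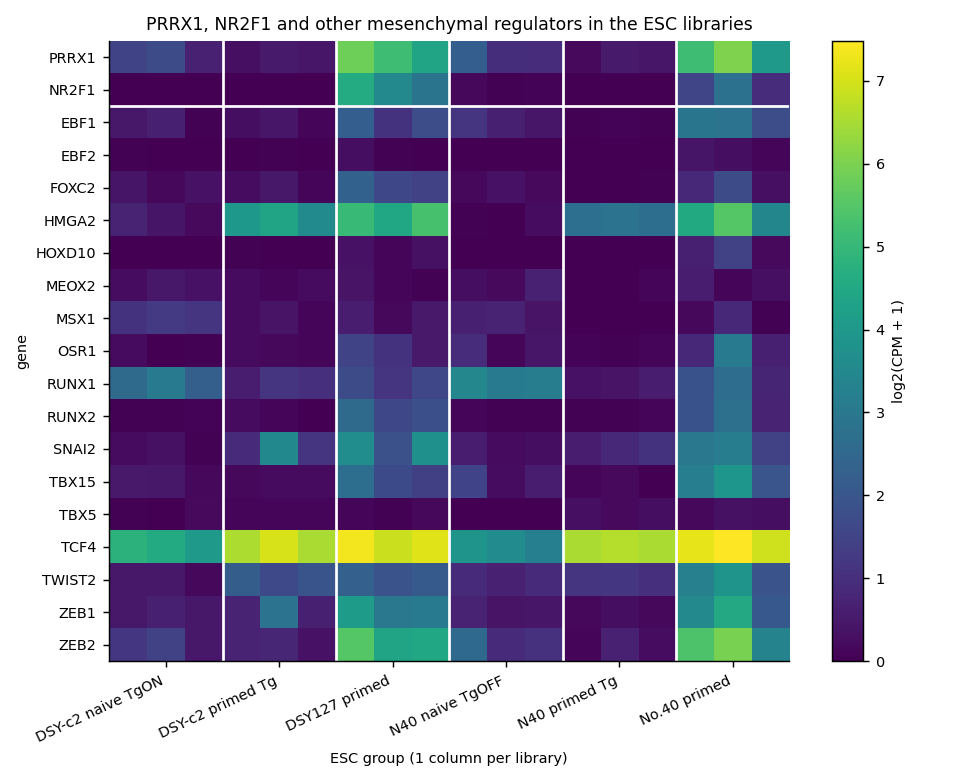
Heat map of log2(CPM + 1) for PRRX1 and NR2F1 (top rows) and the other mesenchymal regulators (1 row per gene), with 1 column per library of the 6 ESC groups. PRRX1 and ZEB2 are bright in the DSY127 and No.40 libraries and dark in the primed Tg and naive libraries.

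Epithelial and pluripotency genes were read beside these results. The epithelial list summed to 3372, 3028 and 3371 CPM in DSY-c2 primed Tg cells, against 3366, 3610.5 and 3422 CPM in DSY127, and to 2743, 2799.6 and 2757 CPM in N40 primed Tg cells, against 2829, 2549.9 and 2842 CPM in No.40. These sums overlapped in both pairs of groups. POU5F1, the core pluripotency factor, had 1031, 919 and 1296 CPM in DSY-c2 primed Tg cells, against 1090, 1209 and 982 CPM in DSY127. It had 1520.2, 1585 and 1631 CPM in N40 primed Tg cells, against 1081, 1245 and 1508 CPM in No.40, with every Tg library higher. Other lists differed in N40 primed Tg cells against No.40 by edgeR, where 2 of 16 epithelial genes rose, 5 of 11 primitive streak genes, 5 of 10 extraembryonic mesoderm and amnion genes and 3 of 13 yolk sac genes fell. Trophoblast and decidua genes fell in 2 of 8 and 2 of 6 cases, and 1 endothelial and 1 neural gene fell. GATA6, an endoderm factor, had 0.102, 0.0515 and 0.0267 CPM in N40 primed Tg cells, against 116, 10.4 and 1.27 CPM in No.40 (edgeR adjusted p = 0.00643). Against DSY127, 1 gene of these lists was called in DSY-c2 primed Tg cells, on the decidua and uterus list. The part of these levels in the results was not tested.

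The deposited columns carry one of 2 pairs of suffixes, whose meaning the labels do not give. All DSY-c2 primed libraries had one pair and all DSY127 libraries the other, so this suffix and the group cannot be told apart. Libraries with the same pair were N40 primed Tg cells and No.40 replicates 2 and 3. Among them 7 of 7 members lay below, where 24.9% of all genes did, and 4 of the other stromal and pathway genes rose and 44 fell, where 8.3% of all genes rose and 7.22% fell by edgeR. DSY-c2 naive replicates 1 and 2 shared a pair with the primed cells. There 1 member lay above and 4 below, where 31.6% of all genes lay above and 40.7% below, and 8 listed genes rose and 67 fell, where 26.1% of all genes rose and 27% fell. DSY127 against No.40 replicates 2 and 3 gave 2 members above, where 24.9% of all genes lay above and 18.6% below, with 4 rises and 3 falls, where 3.2% of all genes rose and 3.16% fell.

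DSY127 and No.40, both primed, were compared last among ESCs. NR2F1 was 4.59-fold and PAMR1 1.7-fold higher in DSY127, with no overlap between libraries, so 2 of 7 members lay above where 16% of all genes did and 11.3% lay below. DCN averaged 70.9 ± 72.4 CPM in DSY127 and 8.45 ± 11.8 CPM in No.40 and overlapped, as did POSTN, PRRX1, FN1 and VIM. The log2 ratio of NR2F1 was 2.2 with all libraries, 1.53 without DSY127 replicate 1 and 3.24 without No.40 replicate 2. Of 128 other stromal and pathway genes tested with edgeR, 5 rose and 2 fell in DSY127, where 2.65% and 1.82% of all genes did. OGN averaged 8.12 CPM in DSY127 and 0.598 CPM in No.40 (log2 3.72 ± 0.73 SE, edgeR adjusted p = 0.00772), and LOXL2, an enzyme that crosslinks collagen, averaged 46.2 CPM in DSY127 and 22.8 CPM in No.40 (edgeR adjusted p = 0.00717). Both were called in every fit without 1 library, but not when only the 2 groups were fitted (edgeR adjusted p = 0.0598 for OGN and 0.051 for LOXL2). The fits without 1 library called 3 to 7 genes, the fewest without DSY127 replicate 2 or 3.

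Within the primed groups, the members did not all peak in the same library, and which of them peaked together differed between groups. In DSY-c2 primed cells, library 4 had the highest FN1, VIM, POSTN, DCN and PRRX1, and library 2 the highest PAMR1. PRRX1 stayed between 0.234 and 0.455 CPM in all 3 libraries, and DCN was at 0.672, 1.44 and 0.252 CPM in libraries 2, 4 and 5. Library 4 also had 2891 CPM of primitive streak and mesoderm genes in sum, against 270.4 and 251 CPM in libraries 2 and 5. Most of that sum was CER1, whose highest level in the group was 2098 CPM, and NODAL reached 424 CPM. EOMES, a T-box factor of the streak, was at 111 CPM and MIXL1 at 72.1 CPM in library 4. GATA6 had 165 CPM there, against 12.8 and 8.31 CPM in libraries 2 and 5, and PDGFRA 264 CPM, against 18.9 and 17.4 CPM. In No.40, replicate 1 had the highest FN1, POSTN and VIM, and 1575 CPM of streak genes, with 91.9 CPM in replicate 2 and 61.5 CPM in replicate 3. The highest levels of CER1 and NODAL in No.40 were 1155 and 247 CPM, so CER1 was again most of the largest sum. GATA6 was at 116, 10.4 and 1.27 CPM and PDGFRA at 244, 49.3 and 15.4 CPM in No.40 replicates 1, 2 and 3. Replicate 2 instead had the highest DCN, PRRX1 and NR2F1, and replicate 3 was lowest in all members but PAMR1.

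In DSY127, replicate 3 had the highest DCN, POSTN, PAMR1 and FN1, and replicate 1 the highest PRRX1, NR2F1 and VIM. The largest streak sum was also in replicate 1, 558 CPM against 147 CPM in replicate 2 and 302 CPM in replicate 3. GATA6 was at 34.9, 7.79 and 48.5 CPM and PDGFRA at 61.6, 25.9 and 95.8 CPM in DSY127 replicates 1, 2 and 3. Both were thus highest in replicate 3, which did not have the largest streak sum. N40 primed cells had 25.7, 30.1 and 42.0 CPM of streak genes and the narrowest ranges of FN1 and VIM among primed groups. CDH1, the epithelial cadherin, was 426 CPM in DSY-c2 primed library 4, with 754 and 668 CPM in libraries 2 and 5. In replicates 1, 2 and 3 it was 474, 463 and 729 CPM in No.40 and 652, 743 and 620.1 CPM in DSY127. In those groups CDH1 was not lowest in the replicate with the largest streak sum. The part of streak or endoderm cells in these levels was not tested.

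**Figure D4:**
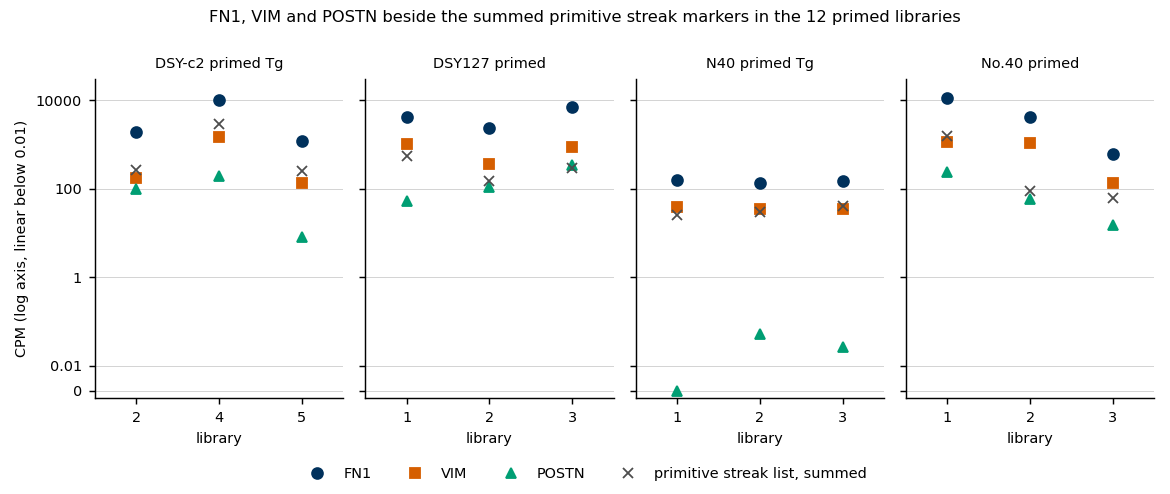
Levels of FN1, VIM and POSTN and the summed level of primitive streak and mesoderm genes (crosses) in each of the 12 primed ESC libraries, in CPM (log axis, linear below 0.01), with 1 panel per group. DSY-c2 primed library 4 and No.40 replicate 1 have the largest streak sums, 2891 and 1575 CPM, and the highest FN1 of their groups. Most of both sums is CER1, whose highest levels in these groups are 2098 and 1155 CPM.

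In the embryo, the postimplantation epiblast was compared with the mean of 5 ICM stages. DCN was at least 137393-fold and PAMR1 at least 96698-fold higher in the epiblast, against floors of 3 counts over the ICM group, and POSTN was 89522-fold higher (95% counting interval 24782 to 739209, from 2 ICM counts). FN1 was 32.8-fold higher by means, at 1333 ± 33.3 CPM in the epiblast and 40.6 CPM over 15 ICM libraries, whose median was 10.5 CPM. VIM was 6.21-fold higher by means, at 2440.2 ± 141 CPM in the epiblast and 393 CPM in the ICM, whose median was 223 CPM. PRRX1 and NR2F1 overlapped. Without hatched ICM replicate 2, the log2 ratio of FN1 was 5.71 in place of 5.04. So 5 of 7 members lay above in every library, where 19% of 16929 genes tested lay above and 11.9% below. Of the 7 members, 6 passed the low-count filter in embryos.

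Other stromal and pathway genes moved with them. Of 115 tested with edgeR, 78 rose and 8 fell in the epiblast, where 26.1% of all genes rose and 18.7% fell, and the median log2 fold change was 3.87, against 0.2 over all genes. Among 36 matrix genes 27 rose and 2 fell. COL3A1 averaged 248 CPM in the epiblast and 0.00125 CPM in the ICM (edgeR adjusted p = 5.8e-07), CDH11 183 CPM in the epiblast and 0.00744 CPM in the ICM (edgeR adjusted p = 2.47e-06), and THBS1, an adhesive matrix glycoprotein, 232 CPM in the epiblast and 1.12 CPM in the ICM (edgeR adjusted p = 7.07e-07). Among the decorin family 5 of 7 rose, including BGN at 32.3 CPM in the epiblast and 4.89 CPM in the ICM (edgeR adjusted p = 0.0192). Receptors rose in 9 of 11 cases, with ITGB5 at 404 CPM in the epiblast and 28.6 CPM in the ICM (log2 4.0 ± 0.32 SE, edgeR adjusted p = 2.76e-07).

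The regulators were mixed in the epiblast. Of 17 with a symbol, 11 passed the low-count filter, and 6 of these rose and 1 fell. Genes silent in the ICM can pass that filter through the epiblast libraries alone, here and in the other lists. ZEB2 averaged 21.4 CPM in the epiblast and 0.00737 CPM in the ICM (edgeR adjusted p = 0.000166), SNAI2 39.6 CPM in the epiblast and 0.164 CPM in the ICM (edgeR adjusted p = 6.52e-05) and HMGA2 19.5 CPM in the epiblast and 0 CPM in the ICM (edgeR adjusted p = 0.000201). RUNX1 fell to 7.6 CPM in the epiblast against 26.8 CPM in the ICM (edgeR adjusted p = 0.0128, and 0.0669 or 0.0739 without epiblast replicate 1 or 2). PRRX2 averaged 2.44 CPM in the epiblast and 1.3 CPM in the ICM and rose over the mean of the stage log levels (edgeR adjusted p = 0.017, and 0.0513 without epiblast replicate 1), while PRRX1 had no count in the epiblast. Intermediate filament genes split, with 3 of 9 higher and 3 lower, and KRT7, an epithelial keratin, fell to 8.42 CPM in the epiblast against 200.0 CPM in the ICM (edgeR adjusted p = 0.0106, and 0.0544 without epiblast replicate 2).

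Markers of other cell types differed along with the members in these libraries. By edgeR, 10 of 14 yolk sac genes tested rose and 1 fell, 5 of 6 blood genes rose, and 7 of 10 endothelial genes rose and 1 fell. Neural and neural crest genes rose in 6 of 9 cases and streak genes in 6 of 11 with 1 lower, while trophoblast genes were split, with 4 of 9 higher and 2 lower. Of 8 extraembryonic mesoderm and amnion genes 2 rose and 1 fell, and of 4 decidua and uterus genes 2 rose. Epithelial genes rose in 6 of 16 cases and fell in 2, with a median log2 fold change of 0.8, against 0.2 over all genes. The yolk sac list summed to 6736, 6881 and 6851 CPM in the epiblast, with SERPINA1 at 2863 CPM and APOB at 512 CPM, while AFP and ALB had no count. COL4A1, at 1826 CPM in the epiblast, and LAMA1, at 561, 617 and 539 CPM, were also large parts of that sum. Both genes were high in primed ESCs too, where COL4A1 averaged 1107 to 1689.6 CPM by group. In the ICM the yolk sac list summed to 7366, 1964 and 1424 CPM in the hatched stage and to 126 to 692 CPM in the other 12 libraries. The blood list of 8 genes summed to 124 to 163 CPM in the epiblast and 0.0404 to 8.92 CPM in the ICM, with LCP1 at 99.4 CPM, SPI1 at 21.6 CPM and PTPRC at 8.12 CPM in the epiblast and the T cell genes CD3D and CD3E at 0.

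The endothelial list summed to 435 to 452 CPM in the epiblast and 173 to 517 CPM in the ICM, with PECAM1 at 266 CPM and TEK at 55.7 CPM in the epiblast and CDH5 at 0.0128 CPM. Extraembryonic mesoderm and amnion genes summed to 128 to 160 CPM in the epiblast and 329.8 to 3257 CPM in the ICM, and HGF was at 0 in the epiblast. The decidua and uterus list summed to 17.1 to 23.9 CPM in the epiblast and 0 to 17.3 CPM in the ICM, of which PRLR was 19.4 CPM in the epiblast and PGR, ESR1 and HOXA11 were at 0. POU5F1 was at 567, 592 and 608 CPM and CDH1 at 636, 608 and 658 CPM in the epiblast libraries. Whether the members came from epiblast cells or from other cells was not tested.

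The ICM and the morula were the earliest pair of groups. All 7 members overlapped between the 15 ICM and 3 morula libraries, where 3.86% of all genes lay above and 5.43% below. VIM averaged 393 CPM in the ICM and 21.2 CPM in the morula, and FN1 averaged 40.6 CPM in the ICM and 0.4 CPM in the morula. Without morula replicate 1, the log2 ratio of VIM was 5.94 in place of 4.21 and that of FN1 7.42 in place of 6.67. Of 115 other stromal and pathway genes tested with edgeR, 18 rose and 18 fell in the ICM, where 8.65% of all genes rose and 12.2% fell. MMP2, a gelatinase that cleaves collagen, averaged 225 CPM in the ICM and 1.0 CPM in the morula (edgeR adjusted p = 0.000846), and PDGFRA, a receptor of primitive endoderm and mesenchyme, 639 CPM in the ICM and 11.8 CPM in the morula (edgeR adjusted p = 3.52e-05). FBLN5, an elastic fibre protein, fell to 0.0543 CPM in the ICM against 78.4 CPM in the morula (edgeR adjusted p = 2.39e-06). Without morula replicate 1, 23 genes were called in place of 36.

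Correlations between members are given as a description, on log2(CPM + 1), since the libraries fall into groups and share depth and processing. Over the 18 ESC libraries FN1 and VIM had Pearson's r of 0.9848, POSTN and FN1 0.9375, and POSTN and VIM 0.9068. PRRX1 and NR2F1 had 0.8967, DCN and NR2F1 0.8792, and DCN and PRRX1 0.7705. PAMR1 and PRRX1 had the lowest value, 0.3504. DCN had 0.695 with POSTN and 0.6715 with FN1. By Spearman's rho FN1 and VIM had 0.983 and PRRX1 and NR2F1 0.868, while POSTN had 0.767 with FN1. The order for DCN changed with the measure, since its rho was 0.826 with POSTN, 0.726 with PRRX1, 0.615 with FN1 and 0.592 with NR2F1.

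Among 9985 genes with a symbol and a mean of at least 1 CPM over the ESC libraries, the genes most like PRRX1 were ZEB2 (r = 0.989), MEIS1 (0.985) and PABPC3 (0.977). Those most like NR2F1 were MECOM (0.963), FAP (0.954) and CP (0.951), and those most like DCN were AKR1C1 (0.944), UNC5C (0.916) and CP (0.909). FN1 was nearest to VIM, GALNT1 (0.983) and DOCK4 (0.974), and VIM to GALNT1 (0.989), FN1 and FBN1 (0.976). POSTN was nearest to TRPA1 (0.966), MYL7 (0.958) and DOCK4 (0.955). PAMR1 was nearest to FSTL1 (0.994), NHSL2 (0.992) and SHROOM4 (0.991). These neighbours depended on the measure. By Spearman's rho 0 of the 3 genes named for DCN, POSTN and PAMR1 were among the nearest 3, 2 of 3 for PRRX1 and 1 of 3 for NR2F1, FN1 and VIM.

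Over the 21 embryo libraries, DCN, POSTN and PAMR1 were all but identical in pattern, with r of 0.9998 or more, because 3 epiblast libraries stood against 18 at or near 0. FN1 and VIM had r of 0.6652, and PRRX1 had -0.1073 with DCN. The genes most like FN1 among 9516 ranked were ADGRL2 (0.961), KIAA1217 (0.939) and IGFBP4 (0.932), and those most like VIM were NETO2 (0.926), KCNS3 (0.909) and ISYNA1 (0.897), of which 0 for FN1 and 2 for VIM were among the nearest 3 by rho. No likeness is given for PRRX1 or NR2F1 in the embryo, where the mean of each over the 21 libraries was below 1 CPM.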

How the data were processed

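Per the labels' protocols, libraries were stranded TruSeq mRNA LT libraries of poly(A)+ RNA. Per the submitters' processing notes, the tools were Trim Galore 0.4.0, STAR 2.5.3a and featureCounts 1.5.2. For the genome build, annotation and strand setting, the entry is "not given in the sources used here". Deposited by the authors were raw counts per gene, for 30811 gene IDs in 2 columns per library, which were summed because they differed far less (chi-square per gene up to 2) than libraries of a group did (at least 28.1). Another 6 columns belong to no sample and were not used. Symbols were joined by gene ID and covered 12660 IDs (41.1%).

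The 7 members and the gene lists were chosen with earlier results of these data known. CPM used the total count. Listed genes were tested with edgeR 4.0.16 in R 4.3.3 (quasi-likelihood, filterByExpr, TMM, robust, Benjamini-Hochberg at 0.05), over 17957 genes in the 18 ESC libraries and 16929 in the 21 embryo libraries, checked on simulated data. Epiblast and morula were set against the mean of the log levels of 5 ICM stages. Of 189 listed genes, 133 have a symbol here. Named are up to 4 called genes per list with the largest change at 10 CPM or more, any gene of the decorin, receptor, filament, regulator and COUP-TF or PRRX lists, and the 3 genes most like each member. Intervals are exact, at 95%, and cover counting error only. Even numbers made up 64.1% of the low counts (1 to 49) and 50.7% of the high ones (500 and up). Read mates may therefore have been counted one by one, which makes intervals and floors optimistic. Alternatives were the size factors of DESeq2, DESeq2 1.42.0 as the test, no filter, a filter of 1 CPM in 3 libraries, halved counts, only the groups compared, single run columns, TMM-scaled levels, the replicate number as a block and each library left out.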

Additional observations from a re-analysis of the deposited data

Results flagged for a closer look

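POSTN lay in opposite directions in the 2 naive against primed comparisons. Its log2 ratio of group means was -5.93 in DSY-c2, where every naive library lay below every primed library, and 5.53 in N40, where every naive library lay above. This difference was not tested, since POSTN was chosen on its levels.

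Of 128 other stromal and pathway genes, edgeR called the difference of the naive effects, DSY-c2 minus N40, higher for 12 and lower for 15. Only 10 of these genes are given here, each on the log2 scale. COL3A1 rose in both lines and its difference was -4.51 ± 1.28 SE (adjusted p = 0.0299, called in 5 of 12 edgeR fits without 1 library). THBS2, a matricellular thrombospondin, rose in N40 and was not called in DSY-c2, with a difference of -3.3 ± 0.39 (edgeR adjusted p = 8.96e-05, called in 12 of 12 such fits). KRT7 had -3.69 ± 0.99 (edgeR adjusted p = 0.0235, 9 of 12) and COL6A3 -1.91 ± 0.5 (edgeR adjusted p = 0.0201, 9 of 12).

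Among regulators, ZEB1 had -4.01 ± 1.24 (edgeR adjusted p = 0.0402, 2 of 12), EBF1 -3.75 ± 1.2 (edgeR adjusted p = 0.0448, 4 of 12) and TWIST2 -2.67 ± 0.68 (edgeR adjusted p = 0.0149, 12 of 12). PRRX2 fell in N40 and was not called in DSY-c2, with a difference of 1.54 ± 0.31 (edgeR adjusted p = 0.00395, 12 of 12). CCN1 and ITGB5 fell in both lines and more in N40, with differences of 3.79 ± 0.92 (edgeR adjusted p = 0.0143, 12 of 12) and 1.43 ± 0.3 (edgeR adjusted p = 0.00534, 12 of 12). The TgON and TgOFF states differ between the lines, so line and state cannot be told apart.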

How the results depend on the processing

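Counts of other stromal and pathway genes called in DSY-c2, in N40 and in the epiblast stayed within 1.5 times the counts given, under every alternative run. For the difference of the naive effects, DESeq2 called 41 where edgeR called 27. In DSY-c2 primed Tg against DSY127, fits without 1 library called 7 to 14 (15 with all), and 3 to 5 members did not overlap (3 with all). DSY127 against No.40, with 7 called, gave 4 with no filter, 17 with DESeq2 and 3 to 7 without 1 library, and 1 member not overlapping (2 with both) from the first column of each library. ICM against morula, with 36 called, gave 23 to 39 without 1 library. Labels give the same replicate numbers across groups, but deviations of same-numbered libraries correlated at -0.365 to 0.236, so no pairing was assumed. The replicate block gave 33 calls in N40 primed Tg against No.40 (60 without it), 23 in ICM against morula and 0 in DSY127 against No.40 (edgeR, 35 at an unadjusted p under 0.05), and 84 in N40 naive and 81 in epiblast. With the block, ZEB2 in N40 naive cells (edgeR adjusted p = 0.0666), TNC in N40 primed Tg against No.40 (edgeR adjusted p = 0.0558) and OGN (0.187) and LOXL2 (0.109) in DSY127 against No.40 were not called. No paired analysis was possible for the DSY-c2 comparisons because their groups share fewer than 2 numbers.

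Among named genes that are not members, 3 values turned round with 1 library left out at a time, none of them called. On the log2 scale, PRRX2 in DSY-c2 ranged over 0.0 to 0.26 (lowest without primed library 4, 0.13 with all). In the epiblast ASPN ranged over -1.59 to 0.52 (highest without blastocyst ICM replicate 1, -0.88 with all). ZEB1 ranged there over -1.01 to 2.71 (lowest without epiblast replicate 3, 1.63 with all). Ratios of members could change sign too, as those of FN1 and POSTN did in DSY-c2 primed Tg against DSY127 without DSY127 replicate 3. The cause of these changes was not tested. The size factors of DESeq2 moved the median log2 fold change of all genes in the epiblast to 0.44 (0.2 with TMM). Low levels of DCN, NR2F1 and PRRX1 rest on few counts, and libraries of the primed groups differ more than depth allows for.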
